A study of Mus musculus with 8 samples.

Results

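Collagen genes other than the epidermal anchoring collagens Col7a1 and Col17a1 were followed in RNA of whole skin from E18.5 mouse embryos, comparing p63 null with wild-type animals. The members were all probe sets (groups of short probes for 1 transcript) with exactly 1 gene symbol made of Col, a number, a and a number. The rule gave 42 of 12488 probe sets on the A chip and 12 of 12477 on the B chip, 54 probe sets of 36 genes in all, where both chips together name 13675 genes. Parents were p63 heterozygotes, and the study used 2 null embryos and 2 wild-type embryos. No treatment was named, and the mutant allele, the strain and any shared litter were not stated in the labels. RNA came from whole skin, so every layer and every cell type of the sampled tissue contributed, and fewer cells of a type cannot be told apart from less RNA per cell. Each genotype had 2 arrays on each of 2 chip types that carry different probe sets, and each chip was analysed apart.

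Collagens are secreted proteins whose chains wind into a helix. Fibrillar collagens form the load-bearing fibres of the dermis. Network collagens form sheets, among them the type IV collagen of basement membranes under epidermis and around blood vessels, muscle fibres, fat cells and nerves. FACIT collagens attach to the surface of fibrils. The remaining types include the beaded filaments of type VI, the multiplexins XV and XVIII of vascular and muscle basement membranes, and the membrane-spanning collagens. p63 is a transcription factor of stratified epithelia, and embryos without it are known to lack a stratified epidermis. Most dermal collagens are made by fibroblasts, not by keratinocytes.

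Trp63, the gene of p63, had signals of 61.9 and 46.6 in null skin, against 379.3 and 347.1 in wild-type skin (log2 fold change -2.49, SE 0.18, adjusted p = 1.13e-05). Where its probes lie with respect to the mutated part of the gene was not stated. The signals are MAS5 intensities in arbitrary units, and every log2 fold change is null minus wild type on the log2(signal + offset) scale of a limma fit over the whole chip, with Benjamini-Hochberg adjusted p-values. A gene is said to have risen or fallen where the adjusted p was under 0.05. The null mean of Trp63 lay just under the signal level needed for testing, so it was tested only through its wild-type arrays. With no filter on low signals its adjusted p by limma was 0.000562. The null array numbered 2 stood apart in an added control transcript, CreX, which read 3592.0 and 6419.5 on the null arrays of the A chip and 3333.7 and 3836.8 on the wild-type arrays. CreX on the B chip read 18942.4 and 32512.0 on the null arrays and 16965.6 and 18289.7 on the wild-type arrays. Beta-actin, whose 3' over 5' signal grows as RNA is degraded, had ratios of 1.27 and 1.27 on the null arrays of the A chip, against 1.63 and 1.69 in wild type. The B chip ratios were 1.36 and 1.33 in null skin, against 1.505 and 1.98 in wild-type skin. The Gapdh ratio set wild-type array 2 apart, with 1.25 and 1.45 in null skin, against 1.47 and 2.46 in wild-type skin on the A chip. The B chip gave a ratio of 1.26 and 1.51 in null skin, against 1.55 and 2.66 in wild-type skin. Whether these differences between arrays play a part in the collagen results was not tested.

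Most collagens that moved were higher in null skin, and those that fell were Col4a5 of the type IV network, the membrane-spanning Col23a1 and Col26a1. Of the 36 genes, 25 had a probe set above the level for testing. Of these, 13 had at least 1 probe set that rose and 3 had 1 that fell, while 9 had none that passed. These counts include Col19a1 and Col23a1, which reached the level for testing only through the genotype in which they were higher. Col1a1, Col5a1 and Col18a1, 3 of the genes with a rise, also had a tested probe set that did not pass. Any tested probe set could thus make a gene count, and the share of all genes by that rule was not computed. The planned rule was instead to count a gene by its tested probe set with the highest mean signal. The chip-wide percentages given below are per probe set. The fibrillar class had 4 of 7 tested genes with a rise and 0 with a fall by limma, also 0 at an unadjusted p under 0.05. By the probe set with the higher mean signal, Col1a1 and Col5a1 did not pass (limma adjusted p = 0.0598 and 0.0687). Read that way, Col1a2 and Col5a3 would be the only fibrillar genes with a rise. The network class had 3 with a rise and 1 with a fall of 4 tested, the FACIT class 2 with a rise of 6, and the other types 4 with a rise and 2 with a fall of 8. The 11 genes without a tested probe set included Col4a6 and Col13a1, described below. Col4a6 and the first of 2 Col13a1 probe sets were higher in wild type.

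On the A chip 29 of the 42 collagen probe sets were tested, of which 14 rose and 2 fell, 55.2% in all, where 44.3% of the 7453 tested probe sets of the chip passed. Rises made up 22.1% and falls 22.2% of that background. The median log2 fold change of the tested collagen probe sets was 0.38, and that of all tested probe sets 0.02. The B chip had 7 of 12 tested, of which 3 rose and 1 fell, beside a background of 29.4% in either direction, 14.5% higher and 14.9% lower. Their median was 0.30, against 0.04 over all tested probe sets. Without wild-type replicate 1 the B chip calls came to 1 of the collagen probe sets and 1175 of all tested, where 2189 were called with every array, and without wild-type replicate 2 to 3 and 1119. The A chip calls over all tested probe sets came to 2125 without wild-type replicate 2, where 3299 were called with every array. With no filter on low signals, 10 of all 42 collagen probe sets on the A chip were higher and 2 lower, beside 11.9% and 12.3% of the chip and 24.2% in either direction. For the B chip 2 were higher and 2 lower of 12, beside 6.6%, 7.3% and 13.9%. Both null arrays lay above both wild-type arrays for 23 of the 42 probe sets and below them for 3. Such groups without overlap made up 63.3% of all probe sets of the A chip. Of its 12422 probe sets other than controls, 4370 lay above and 3487 below. The B chip had 6 of 12 above and 3 below, beside 58% of all probe sets. There 4077 of 12411 lay above and 3121 below. Among tested probe sets 24 of 29 did not overlap on the A chip, beside 73.9%, and 5 of 7 on the B chip, beside 67.7%. Of the 29 tested collagen probe sets on the A chip, 22 read higher on null array 2 than on null array 1, compared with 47.2% of all tested probe sets. Between the wild-type arrays 14 of the 29 read higher on array 2. Of the 7 tested on the B chip, 3 read higher on null array 2, beside 49.3% of all tested, and 4 on wild-type array 2.

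**Figure D1:**
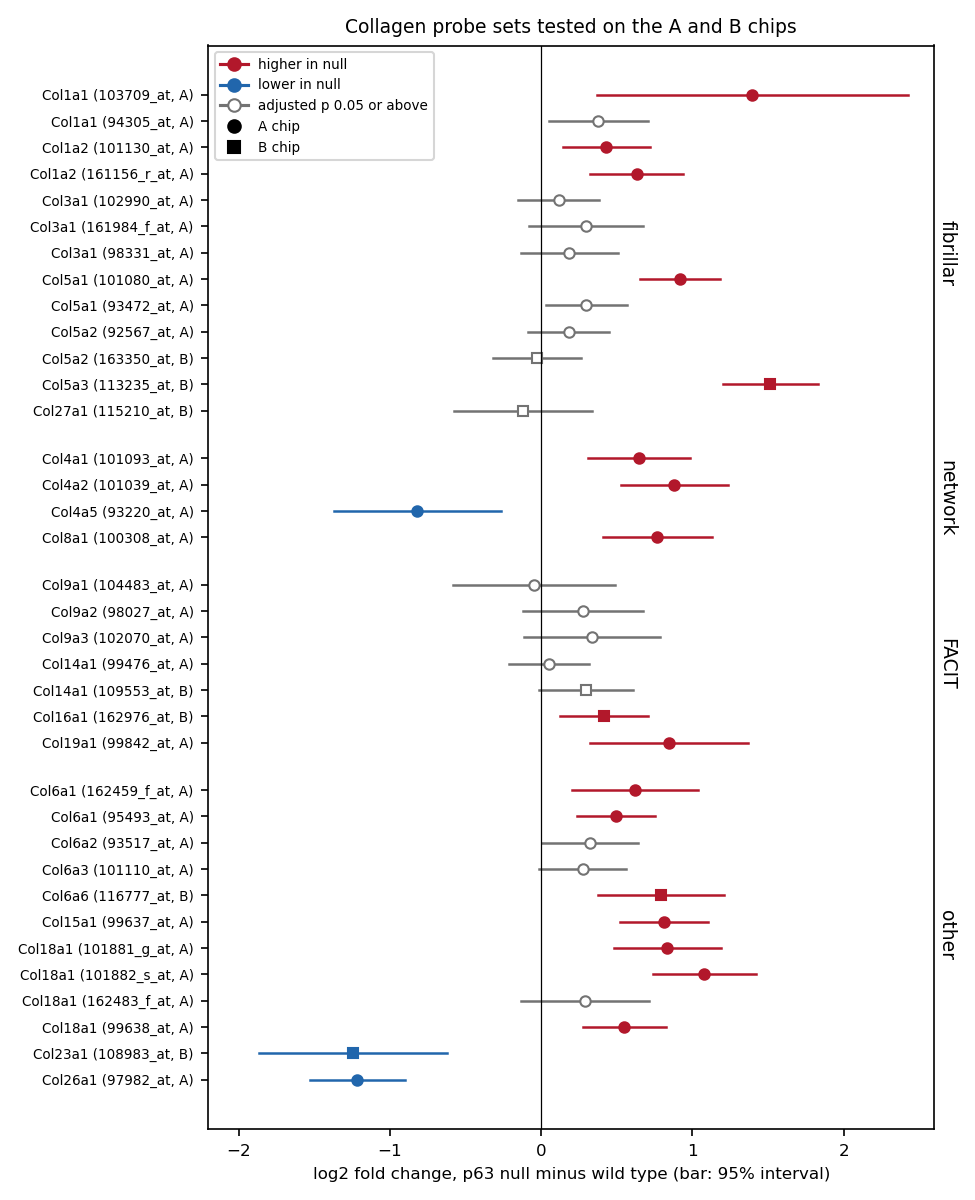
Log2 fold change, p63 null minus wild type, with its 95% interval for each of the 36 tested collagen probe sets, in 4 classes from top to bottom. Circles are A chip and squares B chip probe sets, filled red where the probe set rose, filled blue where it fell and open grey where it did not pass. Only Col4a5, Col23a1 and Col26a1 are filled blue, and the widest interval belongs to a Col1a1 probe set.

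Type IV collagen genes differed in direction between gene pairs. Type IV collagen is the sheet-forming collagen of all basement membranes. Its genes lie in head-to-head pairs, transcribed away from each other: Col4a1 with Col4a2 on chromosome 8, Col4a6 with Col4a5 on the X chromosome, and Col4a4 with Col4a3 on chromosome 1. Col4a1 and Col4a2, whose chains form the network found in nearly every tissue, both rose, and Col4a5 fell. Col4a6, its neighbour, had signals in null skin of 16.3 and 10.5, against 250.1 and 135.9 in wild-type skin. The start windows of these 4 genes are shown because the pairs differed in direction, Col4a6 only in the fit with no filter. They run from 250 bases before to 50 bases after the annotated start, from RefSeq on GRCm38.p6, each on its gene's own strand. Capitals mark the letters CCAAT and GGGCGG on either strand, so that they also show as ATTGG and CCGCCC.
Col4a1, chr8:11312777-11313076, minus strand: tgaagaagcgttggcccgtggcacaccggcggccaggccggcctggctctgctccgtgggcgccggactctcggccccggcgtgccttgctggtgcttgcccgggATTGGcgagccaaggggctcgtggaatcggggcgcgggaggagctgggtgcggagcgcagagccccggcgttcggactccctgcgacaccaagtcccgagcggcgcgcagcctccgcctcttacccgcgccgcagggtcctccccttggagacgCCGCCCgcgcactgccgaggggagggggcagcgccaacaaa
Col4a2, chr8:11312555-11312854, plus strand: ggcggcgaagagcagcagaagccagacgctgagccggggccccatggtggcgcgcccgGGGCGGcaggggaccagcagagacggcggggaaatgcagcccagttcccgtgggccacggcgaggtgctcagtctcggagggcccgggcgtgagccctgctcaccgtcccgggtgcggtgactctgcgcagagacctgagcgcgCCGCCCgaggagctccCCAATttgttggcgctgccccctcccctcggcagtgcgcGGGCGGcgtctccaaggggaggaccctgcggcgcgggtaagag
Col4a6, chrX:141474027-141474326, minus strand: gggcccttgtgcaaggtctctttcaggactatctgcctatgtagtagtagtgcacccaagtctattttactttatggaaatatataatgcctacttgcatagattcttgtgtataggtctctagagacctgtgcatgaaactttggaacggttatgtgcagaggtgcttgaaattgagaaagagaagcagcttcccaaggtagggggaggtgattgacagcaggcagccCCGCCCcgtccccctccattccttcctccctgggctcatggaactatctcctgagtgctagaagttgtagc
Col4a5, chrX:141475169-141475468, plus strand: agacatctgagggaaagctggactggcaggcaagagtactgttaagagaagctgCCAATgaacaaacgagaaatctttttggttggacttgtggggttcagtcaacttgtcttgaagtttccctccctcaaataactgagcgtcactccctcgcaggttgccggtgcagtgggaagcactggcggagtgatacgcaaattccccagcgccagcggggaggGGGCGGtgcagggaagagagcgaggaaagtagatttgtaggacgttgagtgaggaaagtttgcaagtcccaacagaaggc

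The Col4a1 and Col4a2 windows share 78 bases, read on opposite strands, and their annotated starts lie 21 bases apart. The starts of Col4a6 and Col4a5 lie 1343 bases apart, and their windows share 0 bases. G and C make up 74.0% of the Col4a1 window and 73.7% of the Col4a2 window, 48.3% of the Col4a6 window and 52.7% of the Col4a5 window. CCAAT occurred 1 time each in Col4a1, Col4a2 and Col4a5 and 0 times in Col4a6. GGGCGG occurred 1 time in Col4a1, 3 times in Col4a2, 1 time in Col4a6 and 1 time in Col4a5. TATAAA occurred 0 times in all 4 windows. Within a window, no matches of these motifs overlapped one another. The GGGCGG of Col4a1 and the last one of Col4a2 lie in the 78 shared bases. They are the same bases read on opposite strands, so the counts of the pair include them 2 times. Of all 32851 start windows of the table, 37.4% held CCAAT, 35.7% GGGCGG and 13.6% TATAAA. Of the 36 collagen genes 27 had a window in the table, with 30 windows in all, of which 9 held CCAAT, 19 GGGCGG and 4 TATAAA. These matches describe letters and not binding sites.

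Col4a1 had signals of 3818.6 and 5154.8 in null skin, against 2741.3 and 2914.7 in wild-type skin. Both null arrays were above both wild-type arrays, and null array 2 was the highest. The means were 4487 ± 945 in null and 2828 ± 123 in wild type (SD, n = 2 each), a log2 fold change of 0.65 (SE 0.15, limma adjusted p = 0.00716). Col4a2 had 3032.8 and 4269.9 in null skin, against 1955.0 and 1945.2 in wild-type skin. Its log2 fold change was 0.88 (SE 0.16, adjusted p = 0.00192), again with null array 2 the highest. Without wild-type replicate 1 Col4a1 no longer passed (limma adjusted p = 0.0584), and the Col4a2 call was kept under all 12 alternatives.

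Col4a5 had signals of 83.3 and 49.0 in null skin, against 113.6 and 133.4 in wild-type skin, with no overlap between the genotypes. The α5 chain joins the α6 chain in the basement membrane of epidermis and smooth muscle and the α3 and α4 chains in kidney. The log2 fold change was -0.82 (SE 0.25, limma adjusted p = 0.0236). The call was lost without null replicate 2 (-0.50, adjusted p = 0.110), without wild-type replicate 2 (-0.71, adjusted p = 0.109) and with no filter (adjusted p = 0.0762). The Col4a6 probe set of the B chip stayed below the level for testing because its null signals were so low. With no filter it had a log2 fold change of -1.83 (SE 0.30, limma adjusted p = 0.0145), and both null arrays were below both wild-type arrays. Col4a3 and Col4a4 are the chains of the kidney glomerulus. Their A chip probe sets read 3.1 and 4.0 and 7.4 and 4.0 in null skin, against 6.1 and 1.3 and 5.3 and 5.1 in wild-type skin. The B chip probe set of Col4a3 had 63.1 and 34.1 in null skin, against 24.1 and 25.4 in wild-type skin, and did not pass with no filter (limma adjusted p = 0.307).

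Type VIII collagen forms hexagonal sheets in vessel walls and the cornea. Col8a1 had signals of 208.1 and 221.8 in null skin, against 120.6 and 120.8 in wild-type skin. The replicates lay close together and the groups far apart (log2 fold change 0.77, SE 0.16, limma adjusted p = 0.00424). The call was kept under all 12 alternatives. Its partner chain Col8a2 read 56.9 and 48.6 in null skin, against 50.6 and 42.9 in wild-type skin on the B chip, and these overlapped below the level for testing. Col10a1, the collagen of hypertrophic cartilage, had 31.2 and 15.3 in null skin, against 21.8 and 16.0 in wild-type skin, also untested.

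**Figure D2:**
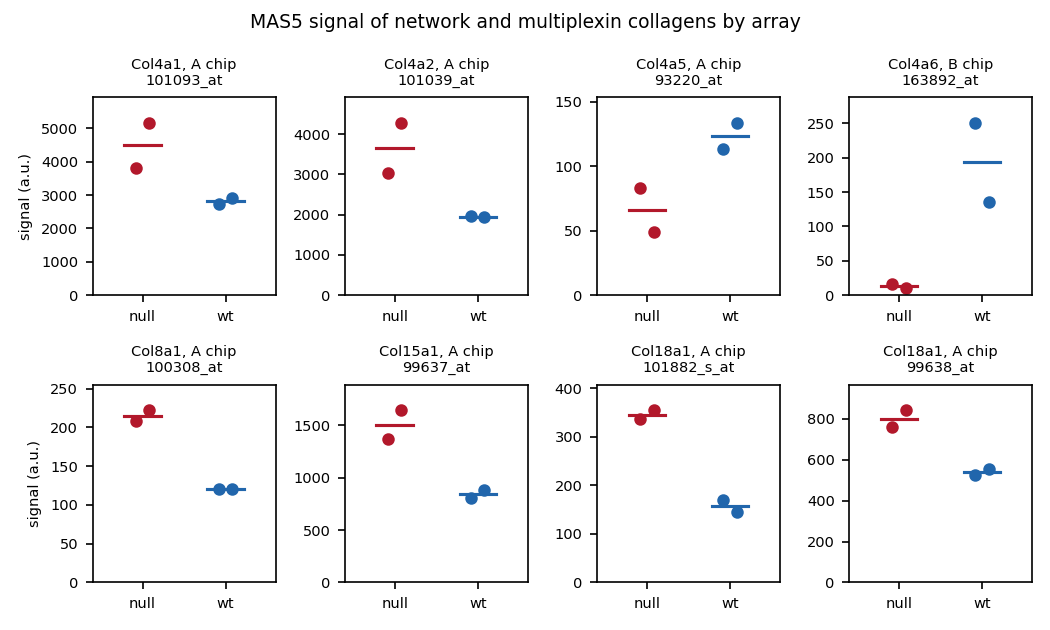
MAS5 signal (arbitrary units, axes from 0) on each array for network collagens and for the multiplexins Col15a1 and Col18a1, null at the left and wild type at the right of each panel. Points are arrays and lines the means of 2. Col4a5 and Col4a6 are the panels in which both null arrays lie below both wild-type arrays, at 83.3 and 49.0 against 113.6 and 133.4 for Col4a5 and at 16.3 and 10.5 against 250.1 and 135.9 for Col4a6.

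Among the fibrillar collagens, Col5a3, 1 of 2 Col5a1 probe sets, 1 of 2 Col1a1 probe sets and both Col1a2 probe sets rose, while Col3a1, Col5a2 and Col27a1 did not pass. Type V collagen is a minor fibrillar collagen that sits inside type I fibrils and limits their diameter. Col5a3, a chain found in fewer tissues than the other type V chains, had signals of 2563.5 and 2723.3 in null skin, against 825.8 and 955.0 in wild-type skin. The means were 2643 ± 113 in null and 890 ± 91.4 in wild type (SD, n = 2 each), a log2 fold change of 1.52 (SE 0.13, limma adjusted p = 0.000297). It ranged from 1.41 to 1.62 over the 12 alternatives and passed in each.

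Col5a1 was read by 2 probe sets that differed in size. The first had 1504.2 and 1721.9 in null skin, against 848.9 and 843.8 in wild-type skin (log2 fold change 0.92, SE 0.12, limma adjusted p = 0.000303). The second had 3471.1 and 3975.8 in null skin, against 3094.5 and 2945.6 in wild-type skin. Its groups did not overlap either, but its log2 fold change of 0.30 (SE 0.12, adjusted p = 0.0687) did not pass, except with quantile normalization or without null replicate 1 (adjusted p = 0.00364). Col5a2, the usual partner chain, had 4780.3 and 5411.9 in null skin, against 4520.4 and 4445.5 in wild-type skin on the A chip (0.18, 95% interval -0.08 to 0.45, adjusted p = 0.240). The B chip probe set had 1787.9 and 1726.2 in null skin, against 1877.4 and 1711.0 in wild-type skin, and the groups overlapped (-0.03, 95% interval -0.32 to 0.26, adjusted p = 0.886). Without null replicate 1 the A chip probe set of Col5a2 passed (0.27, limma adjusted p = 0.0190).

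Type I collagen, the main protein of dermal fibres, is built from Col1a1 and Col1a2 chains. Col1a2 had 7074.6 and 8452.2 in null skin, against 5819.6 and 5647.3 in wild-type skin by the first probe set, with a log2 fold change of 0.43 (SE 0.13, limma adjusted p = 0.0227). The second had 848.6 and 822.4 in null skin, against 596.1 and 478.7 in wild-type skin (0.63, SE 0.14, adjusted p = 0.00501). Both probe sets had non-overlapping groups. The first did not pass without wild-type replicate 1 (limma adjusted p = 0.182) or 2 (0.255), with no filter (0.0773), with median centring, with no variance trend or with the replicate block. The second did not pass without wild-type replicate 2 (limma adjusted p = 0.0527).

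The Col1a1 values depended on which null arrays were used. Its first probe set had signals of 8668.0 and 11226.2 in null skin, against 7801.5 and 7363.5 in wild-type skin, and just missed the threshold (log2 fold change 0.38, SE 0.15, limma adjusted p = 0.0598). Its second had 985.2 and 3726.8 in null skin, against 713.6 and 729.0 in wild-type skin. Here null array 2 stood far above the other 3 arrays. The log2 fold change of 1.40 (SE 0.46, adjusted p = 0.0336) came to 0.44 without null replicate 2 (adjusted p = 0.0144) and 2.35 without null replicate 1 (adjusted p = 1.46e-09). With no filter the adjusted p by limma was 0.120, and with no variance trend the call was lost as well. The first probe set also moved, to 0.19 without null replicate 2 (limma adjusted p = 0.0617) and 0.57 without null replicate 1 (adjusted p = 4.17e-05). By the second probe set the null arrays thus differed more from each other than null array 1 did from either wild-type array.

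Type III collagen, which mixes with type I in fine fibres of fetal skin, was read by 3 Col3a1 probe sets, and none passed by limma. The first had 6126.6 and 7626.5 in null skin, against 6463.6 and 5570.9 in wild-type skin, with the genotypes overlapping. Its log2 fold change was 0.19, with a 95% interval of -0.14 to 0.51 (adjusted p = 0.315). The second and the third had log2 fold changes of 0.30 (95% interval -0.08 to 0.67) and 0.12 (95% interval -0.15 to 0.38). Without null replicate 1 the first passed (0.35, limma adjusted p = 0.00814) and so did the second (0.49, adjusted p = 0.0159). Leaving out null replicate 2 instead gave 0.03 and 0.10. Col27a1, a fibrillar collagen of cartilage and other tissues, had 1091.5 and 766.6 in null skin, against 1095.8 and 909.8 in wild-type skin (-0.12, 95% interval -0.58 to 0.34, adjusted p = 0.678). With 1 array left out it ranged from -0.36 without null replicate 1 to 0.12 without null replicate 2. A second Col27a1 probe set, below the level for testing, had 142.3 and 319.2 in null skin, against 115.3 and 83.2 in wild-type skin. The cartilage chains Col2a1, Col11a1 and Col11a2 were below that level as well, with signals of 10.7 to 51.0 in null skin, against 5.8 to 51.8 in wild-type skin.

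**Figure D3:**
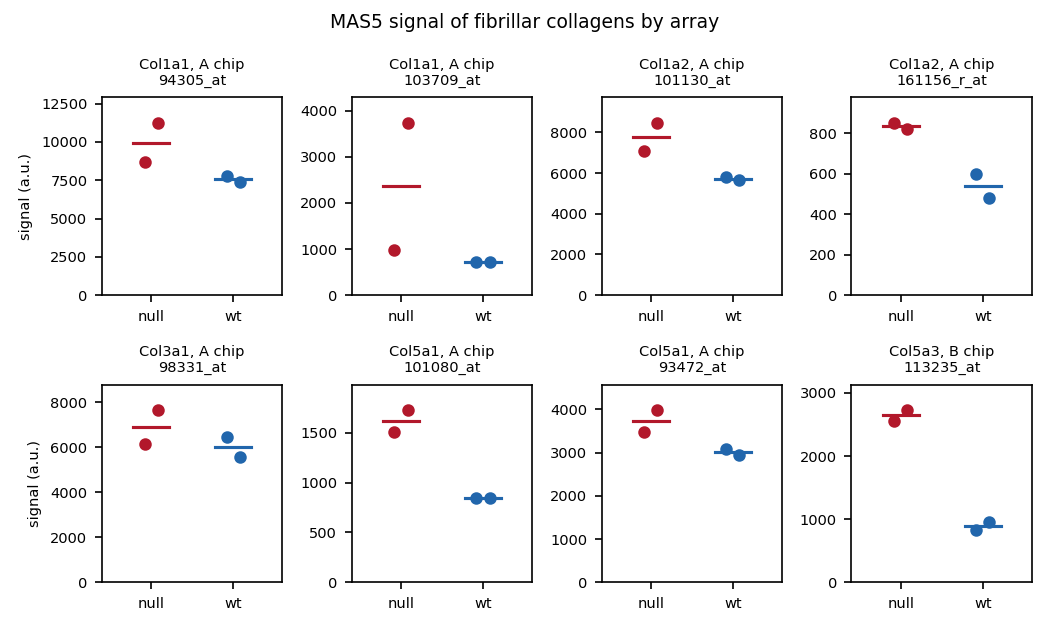
MAS5 signal (arbitrary units, axes from 0) on each array for 8 fibrillar collagen probe sets, null at the left and wild type at the right of each panel, points for arrays and lines for the means of 2. The null arrays of the second Col1a1 probe set stand apart at 985.2 and 3726.8, while those of Col5a3 lie close together at 2563.5 and 2723.3, above the wild-type arrays at 825.8 and 955.0.

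Of the FACIT collagens, Col19a1 and Col16a1 rose and the tested type IX and XIV chains did not pass. The type XII and XXII chains were below the level for testing. Col19a1, a collagen of basement membrane zones that is known from muscle, had signals of 72.7 and 99.5 in null skin, against 40.2 and 43.3 in wild-type skin (log2 fold change 0.84, SE 0.23, limma adjusted p = 0.0165). The groups did not overlap. Its wild-type mean of 5.77 on the log2(signal + offset) scale lay under the level for testing, 6.06, so it was tested only through the null arrays. With no filter it did not pass (limma adjusted p = 0.0542), and without null replicate 2 it was no longer tested. Col16a1, which lies near dermal fibrils and basement membranes, had 3609.8 and 3843.3 in null skin, against 2592.4 and 2978.3 in wild-type skin (0.42, SE 0.13, adjusted p = 0.0433). This call was lost without null replicate 2 (limma adjusted p = 0.0683), wild-type replicate 1 (0.281) or wild-type replicate 2 (0.102), with no filter (0.0794), with median centring and with no variance trend.

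Col14a1, which binds dermal fibrils, had 663.3 and 623.0 in null skin, against 604.6 and 634.9 in wild-type skin on the A chip (0.05, 95% interval -0.21 to 0.32, limma adjusted p = 0.745). The B chip probe set had 3199.4 and 3346.2 in null skin, against 2414.0 and 2908.4 in wild-type skin (0.30, 95% interval -0.01 to 0.61, adjusted p = 0.132), and without wild-type replicate 1 its value was 0.17. The type IX chains, known from cartilage, had log2 fold changes of -0.05, 0.28 and 0.34 for Col9a1, Col9a2 and Col9a3 on the A chip, none past the threshold by limma. With 1 array left out Col9a1 ranged from -0.34 without wild-type replicate 2 to 0.24 without wild-type replicate 1. Col9a2 came to 0.17 without wild-type replicate 2 and Col9a3 to 0.18 without null replicate 2. The B chip probe set of Col9a1, below the level for testing, had 55.8 and 65.9 in null skin, against 111.1 and 162.2 in wild-type skin. With no filter its log2 fold change was -0.72 (SE 0.27, limma adjusted p = 0.144). The Col12a1 and Col22a1 probe sets and a second one of Col9a3 read 1.9 to 37.9 in null skin, against 2.7 to 37.5 in wild-type skin. All had overlapping genotypes and lay below the level for testing.

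Type VI collagen forms beaded filaments around cells in dermis, muscle and fat. Col6a1 had 5255.1 and 5214.7 in null skin, against 3900.1 and 3532.0 in wild-type skin by the first probe set (log2 fold change 0.49, SE 0.11, limma adjusted p = 0.00742). By the second it had 1233.5 and 1865.6 in null skin, against 901.2 and 1072.2 in wild-type skin (0.62, SE 0.18, adjusted p = 0.0230). The genotypes did not overlap in either. Col6a6, a chain known from skin and muscle, had 1687.8 and 1390.8 in null skin, against 749.3 and 992.2 in wild-type skin (0.79, SE 0.18, adjusted p = 0.0159). Col6a2, a partner of Col6a1, had 3373.0 and 4396.7 in null skin, against 3033.4 and 3117.3 in wild-type skin (0.32, 95% interval 0.01 to 0.64, limma adjusted p = 0.0907). Col6a3, the other partner, had 6588.4 and 7832.6 in null skin, against 6064.2 and 5802.1 in wild-type skin (0.28, 95% interval -0.01 to 0.56, adjusted p = 0.109). Neither overlapped, null array 2 was the highest in both, and both passed without null replicate 1, at 0.51 for Col6a2 (limma adjusted p = 0.000447) and 0.40 for Col6a3 (adjusted p = 0.00112). Leaving out null replicate 2 gave 0.13 and 0.15. The first Col6a1 probe set did not pass without wild-type replicate 1 (limma adjusted p = 0.0611) or 2 (0.176). The call of the second was lost without null replicate 2 (0.32, limma adjusted p = 0.0686) and without wild-type replicate 1 (0.0962), with no filter (0.0754) and with no variance trend, and that of Col6a6 without wild-type replicate 1 (0.0952).

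The multiplexins rose. Col15a1, a collagen of muscle and capillary basement membranes, had signals of 1367.9 and 1642.6 in null skin, against 810.0 and 885.8 in wild-type skin (log2 fold change 0.81, SE 0.13, limma adjusted p = 0.000955). Col18a1, the precursor of endostatin, was read by 5 probe sets, 4 of them tested and 3 past the threshold. The first had 336.0 and 354.0 in null skin, against 169.1 and 144.9 in wild-type skin (1.08, SE 0.15, adjusted p = 0.000494). The second had 383.4 and 500.1 in null skin, against 243.1 and 236.4 in wild-type skin (0.84, SE 0.16, adjusted p = 0.00254). By the third, with 760.3 and 840.8 in null skin, against 526.8 and 556.9 in wild-type skin, the value was 0.55 (SE 0.12, adjusted p = 0.00564). The fourth had 108.1 and 104.7 in null skin, against 81.0 and 88.4 in wild-type skin, and did not pass (0.29, 95% interval -0.13 to 0.71, limma adjusted p = 0.237). All 4 had both null arrays above both wild-type arrays. The last, below the level for testing, read 7.4 and 29.9 in null skin, against 9.5 and 9.7 in wild-type skin. The calls of Col15a1 and of the 3 Col18a1 probe sets were kept under all 12 alternatives.

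Col26a1 and the membrane-spanning Col23a1 fell, and 1 of 2 Col13a1 probe sets was lower in null skin only in the fit with no filter. Col26a1, a short collagen first described in testis and ovary, had signals of 188.7 and 169.9 in null skin, against 429.2 and 435.7 in wild-type skin. Both genotypes were tight and far apart (log2 fold change -1.21, SE 0.14, limma adjusted p = 0.000161), and the call was kept under all 12 alternatives. Col23a1, a membrane-spanning collagen, had 169.6 and 114.4 in null skin, against 490.8 and 335.6 in wild-type skin (-1.25, SE 0.27, adjusted p = 0.0130). Its null mean of 7.60 on the log2(signal + offset) scale lay under the level for testing, 7.79, so it was tested only through the wild-type arrays. With no filter it passed (limma adjusted p = 0.0395), and without wild-type replicate 1 it did not (0.0938). Col13a1, another membrane-spanning collagen, found at cell junctions and at the muscle synapse, had 31.9 and 21.9 in null skin, against 91.6 and 83.8 in wild-type skin by the first of 2 probe sets. It was below the level for testing, and with no filter it had a log2 fold change of -1.35 (SE 0.25, limma adjusted p = 0.0128). The other Col13a1 probe set read 27.1 and 16.9 in null skin, against 26.8 and 18.1 in wild-type skin, and overlapped.

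**Figure D4:**
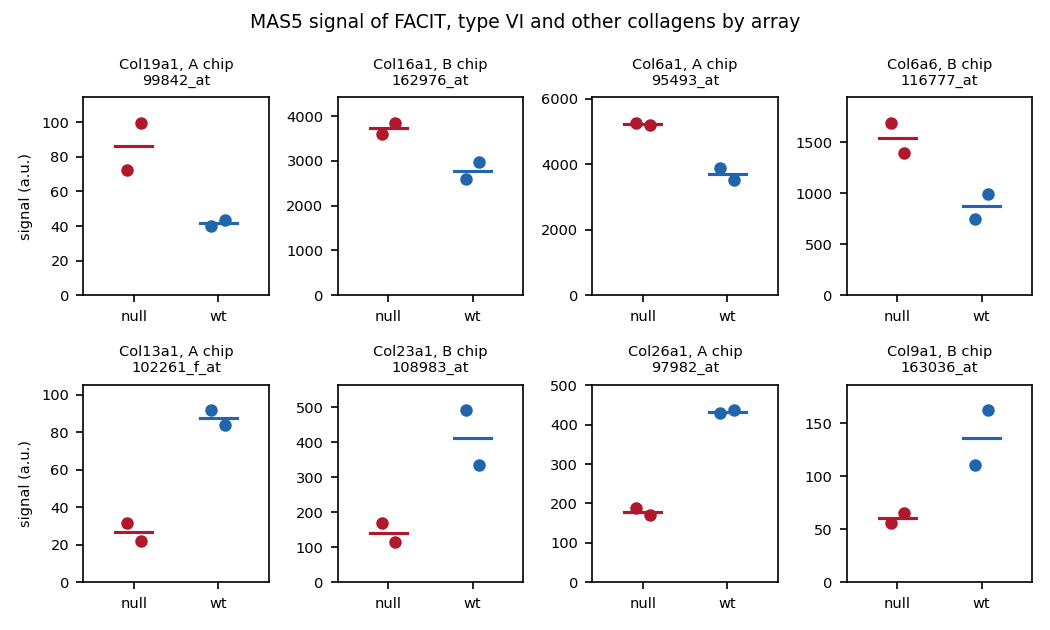
MAS5 signal (arbitrary units, axes from 0) on each array for FACIT, type VI and other collagens, null at the left and wild type at the right of each panel, points for arrays and lines for the means of 2. Both null arrays lie above both wild-type arrays for Col19a1, Col16a1, Col6a1 and Col6a6 and below them for Col13a1, Col23a1, Col26a1 and the B chip probe set of Col9a1.

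The anchoring collagens of the epidermal junction, which the rule leaves out, fell as well. Col17a1 had 86.2 and 68.7 in null skin, against 667.5 and 709.2 in wild-type skin (log2 fold change -2.96, limma adjusted p = 1.31e-06). Col7a1 had 481.3 and 471.0 in null skin, against 1521.2 and 1290.8 in wild-type skin (-1.53, adjusted p = 2.07e-05).

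Genes that modify, process, cross-link or bind collagen were compared in 6 lists, read against the 44.3% of A chip and 29.4% of B chip probe sets that passed. In the list of chain-modifying enzymes and chaperones, 4 of 11 tested genes rose and 1 fell on the A chip, with a median log2 fold change of 0.20. For the B chip 2 of 8 rose and 0 fell by limma, with a median of 0.34, so the share called was near that background on the A chip and below it on the B chip. The collagen galactosyltransferase Colgalt1 rose by 0.61 and the collagen export factor Mia3 by 0.56, both on the A chip. The B chip probe set of Colgalt1 did not pass (0.50, limma adjusted p = 0.0523). The lysyl hydroxylase Plod1 rose by 0.80 and the prolyl hydroxylase P3h1 by 0.67, while P3h4, a partner of such enzymes, fell by 0.41. Serpinh1, the collagen chaperone, was chosen after its value was seen. It had 3812.8 and 4245.1 in null skin, against 3465.8 and 3636.7 in wild-type skin, and did not pass (0.18, limma adjusted p = 0.236).

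Of the enzymes that trim procollagen, both tested genes rose on the A chip and 1 of 2 on the B chip. Bmp1, the C-proteinase, rose by 0.85 and its enhancer Pcolce by 0.67. The N-proteinase Adamts14 rose by 0.92 on the B chip. A second Bmp1 probe set, on the B chip and below the level for testing, had 65.0 and 119.8 in null skin, against 163.7 and 219.6 in wild-type skin, which is the opposite order. The cross-linking enzymes Loxl1 and Lox rose by 0.59 and 0.46, the 2 tested on the A chip. Among collagen receptors and uptake genes 2 of 4 rose on the A chip and 2 of 2 on the B chip. Itga11, a fibroblast integrin chain that binds fibrillar collagen, had 395.7 and 475.7 in null skin, against 88.6 and 23.4 in wild-type skin (log2 fold change 2.21, SE 0.34, limma adjusted p = 0.00334). Its wild-type mean of 6.72 on the log2(signal + offset) scale was under the level for testing, 7.79, so it too was tested only through the null arrays, and with no filter its adjusted p was 0.0141 by limma. With the offset at the 40th percentile the value was 1.44, and with either null array left out it was no longer tested. The protease Ctsk, the uptake receptor Mrc2 and the receptor Ddr2 rose by 0.54, 0.53 and 0.44.

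Basement membrane partners of type IV collagen included 6 that rose and 1 that fell of 10 tested on the A chip, with a median of 0.57. Lama4, a laminin chain of blood vessels, had 1327.2 and 1312.2 in null skin, against 506.5 and 551.4 in wild-type skin (log2 fold change 1.30, SE 0.12, limma adjusted p = 3.4e-05). Hspg2 (perlecan) rose by 1.04. Lama5, the laminin chain of many epithelial basement membranes, fell, with 147.3 and 143.6 in null skin, against 221.9 and 208.0 in wild-type skin (-0.52, SE 0.16, adjusted p = 0.0228). The 1 gene of the list tested on the B chip did not pass (0.20, limma adjusted p = 0.394). Of the elastic fibre and fibril partners 3 of 6 rose on the A chip and 2 of 3 on the B chip, with 0 lower on either by limma. Fibronectin (Fn1) rose by 0.71, elastin (Eln) by 0.64, Emilin1 by 0.86 and Fbln5 by 0.66. Of the 21 partners named as risen or fallen 10 lost the call under at least 1 alternative in which they were tested. Itga11 is not among these 10, but it was no longer tested with either null array left out. Leaving out 1 array ended the calls of Mia3, P3h4, Loxl1, Lox, Ddr2, Lama5, Eln, P3h1, Mrc2 and Fbln5, with adjusted p-values of 0.0511 to 0.189 by limma.

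**Figure D5:**
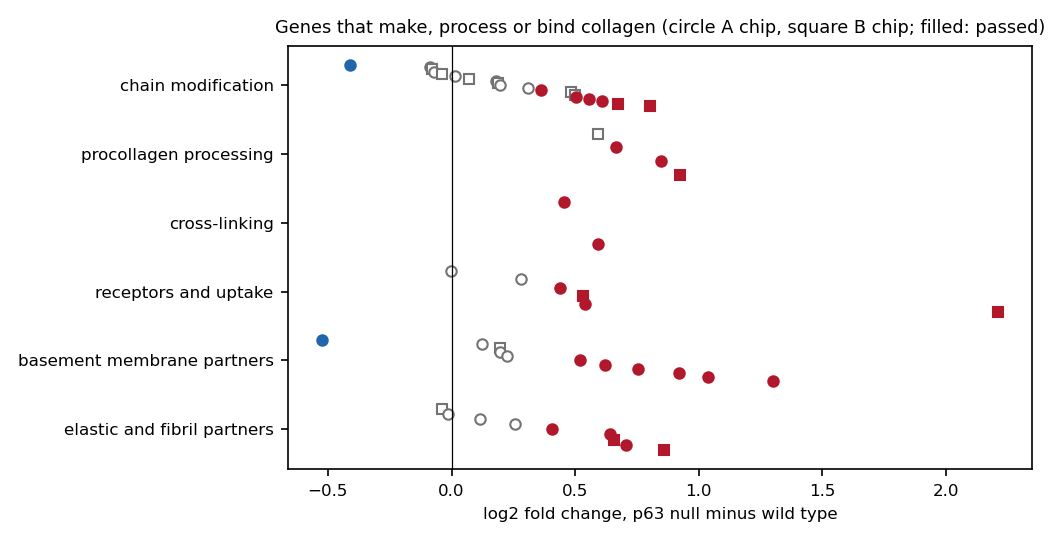
Log2 fold change, p63 null minus wild type, of each tested gene in 6 lists of genes that make, process or bind collagen, circles for the A chip and squares for the B chip. Filled red points rose, filled blue points fell and open points did not pass. P3h4 and Lama5 are the filled blue points at -0.41 and -0.52, and Itga11 is the filled square at 2.21.

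Markers of the cell types in whole skin were read against the same 44.3% of A chip probe sets. Of 10 keratinocyte markers on the A chip all 7 tested fell, and their summed signal was 3983.9 and 4687.5 in null skin, against 38634.7 and 37496.8 in wild-type skin. The A chip probe sets of Krt5, Krt14 and Krt15 read at most 15.9 on any array and were not tested, while Krt15 on the B chip had 842.1 and 784.0 in null skin, against 10543.6 and 12121.1 in wild-type skin. Beside the higher collagens, 3 of 9 fibroblast markers rose and 1 fell, a share near that background, with summed signals of 15479.3 and 17092.0 in null skin, against 14425.6 and 14289.6 in wild-type skin. All 9 skeletal muscle markers rose (20708.9 and 22716.3 in null skin, against 9962.9 and 9876.3 in wild-type skin). Of 8 endothelial and mural markers 5 rose and 1 fell (5335.0 and 5931.5 in null skin, against 3192.0 and 3335.6 in wild-type skin). Of 4 adipocyte markers 3 rose (9509.6 and 10474.2 in null skin, against 4090.6 and 3677.1 in wild-type skin), as did all 8 macrophage markers (8293.1 and 8760.0 in null skin, against 2909.1 and 2645.9 in wild-type skin). Among the adipocyte markers that rose, Ucp1 had 1859.1 and 2022.6 in null skin, against 33.8 and 31.7 in wild-type skin. Its wild-type signals lay under the level for testing, so it was tested only through the null arrays. Of 3 tested Schwann cell markers 1 fell and 0 rose by limma, with sums of 704.5 and 693.8 in null skin, against 1137.8 and 1094.2 in wild-type skin. All 5 cartilage and bone markers on the A chip were below the level for testing, with sums of 77.0 and 81.4 in null skin, against 89.5 and 93.2 in wild-type skin. Sox9, the 1 of that list on the B chip, which hair follicles also express, fell (log2 fold change -0.82, limma adjusted p = 0.00958). No listed marker read 0. The part of these cell types in the collagen results was not tested.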

How the data were processed

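RNA of whole E18.5 skin was measured on 8 single-colour Affymetrix arrays. The labels' protocols name TriZol extraction, an RNeasy clean-up and a biotin label. The deposited intensity of each probe set came from MAS5, a tool named in the submitters' processing notes, in an unstated version. The authors' values were already scaled, with 2% trimmed means of 250.1 to 250.2 (A chip) and 500.1 (B chip).

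Each array was rescaled to the mean 2% trimmed mean of its chip. An offset at the chip's 20th percentile, 12.9 for the A chip and 54.3 for the B chip, was then added ahead of log2, which understates changes of low signals. The 66 control probe sets per chip were left out. Probe sets whose mean log2 value lay above the 40th percentile were tested, 7453 and 7446. limma 3.58.1 in R 4.3.3 (lmFit, eBayes with an intensity trend) gave two-sided p-values, adjusted by Benjamini-Hochberg over each chip. The fit was tested on simulated data. Replicates are numbered skin samples of 1 genotype per the titles. Whether same-numbered A chip and B chip arrays came from the same embryo was not stated. Same-numbered null and wild-type arrays were not tied by any label, and their deviations correlated at 0.04 (A chip) and -0.05 (B chip), so pairing was not used.

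Probe sets were named from the platform annotation, which can be old, and all 54 members matched a RefSeq gene of GRCm38.p6 by identifier. Probe sets of related collagens can bind each other's transcripts. Levels were compared between probe sets only to pick the one with the highest mean signal, and marker signals were summed over probe sets. The number of arrays limits precision. Named are every member past the threshold, the member with the highest mean signal of each class, the other members by their values or range, and the 2 largest rises and falls past the threshold in each list. In lists a gene was read by its highest-mean tested probe set. The members and lists were chosen with earlier results of these data known. Alternatives were other offsets, filters and scalings, no variance trend, leaving out each array and a replicate block.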

Additional observations from a re-analysis of the deposited data

How the results depend on the processing

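With 1 array left out, the lone array is assumed to vary like the others. The probe sets called then numbered 2125 to 3375 on the A chip (1074 to 1579 higher, 1051 to 1796 lower), and 1119 to 2599 on the B chip (577 to 1244 higher, 542 to 1355 lower), the low ends without wild-type replicate 2. Collagen probe sets called numbered 12 to 24 on the A chip (10 to 21 higher, 1 to 3 lower), the most without null replicate 1, and 1 to 4 on the B chip (1 to 3 higher, 0 to 1 lower), the fewest without wild-type replicate 1. With the filter at the 60th percentile 1 collagen probe set was lower by limma on the A chip and 0 of those on the B chip, because Col4a5 and Col23a1 were no longer tested. With no filter 2 were lower on the B chip, Col4a6 being added.

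Of the 20 collagen calls, 9 were kept under every alternative and 11 were lost under at least 1. Of the 36 tested collagen probe sets 6 lost the call with no filter, 2 with median centring and 4 with no variance trend, while 4 gained one with quantile normalization. Both other offsets changed 0 collagen calls. Without null replicate 1 the number gained was 7. No called value changed direction. With the replicate block 15 collagen probe sets of the A chip were called (13 higher, 2 lower) and 4 of the B chip, and 3368 and 2411 of all probe sets. The block ended the calls of the first Col1a2 probe set and of P3h4, but same-numbered arrays share only a number. The causes of these changes were not tested. With median centring the median log2 fold change of all tested probe sets was 0.01 (A chip) and 0.06 (B chip), and with quantile normalization 0.02 and 0.05.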
